A study of Canis lupus familiaris with 8 samples.

Results

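The genes described here encode ribosomal proteins and translation factors, measured in a canine mammary carcinoma cell line, its doxorubicin-resistant subline, and stem-like cells sorted from each. They were found by name: a probe was taken when its reference transcript belongs to a dog gene whose symbol begins with RPL, RPS, MRPL, MRPS, EIF or EEF, and the RPS6K kinases were left out. This gave 34 genes on 66 probes. They comprise 16 large-subunit (RPL) genes on 34 probes, 9 small-subunit (RPS) genes on 18 probes, the mitochondrial ribosomal genes MRPL33 and MRPS35 on 1 probe each, 6 EIF genes on 8 probes and EEF1A1 on 4 probes. The array holds 43603 probes, and 2353 of them (5.4%) could be named, for 1458 symbols in all, so the 34 genes are the named members of these families and not the whole families. All 34 genes and all 66 probes were bright enough to be tested, among 26821 tested probes.

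The study set the sensitive line against its resistant subline, and each against the stem-like fraction sorted from it. The 4 groups had 2 arrays each. Stylo parent is the unsorted CMT-Stylo line, which received no drug. Star parent is the unsorted CMT-Star subline, labelled as doxorubicin treated, which was raised from CMT-Stylo by stepwise exposure over months until it withstood 100 nM of the drug. Stylo CSC and Star CSC are the cells sorted from those cultures as CD44+, CD24-/low and ALDH+; the Star CSC arrays carry the doxorubicin label as well. All groups share the same origin, medium and RNA kit. Each contrast between drug-sensitive and drug-resistant cells therefore compares 1 line with 1 subline, and sorted cells went through staining and sorting that unsorted cells did not. Nothing in the labels says that replicates came from separate cultures, so p-values rest on the array-to-array spread alone, and that spread may be technical.

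A ribosome joins a large subunit, where peptide bonds form, to a small subunit, which reads the messenger RNA. Initiation factors bring the small subunit to the start codon, elongation factors deliver aminoacyl-tRNAs, and kinases that phosphorylate the initiation factor eIF2 lower initiation under stress. Ribosomal protein transcripts are among the most abundant in growing cells, many carry a 5' terminal oligopyrimidine tract through which mTOR signalling controls their translation, and several of the proteins also have roles outside the ribosome. Dog chromosomes, like those of other mammals, carry many processed pseudogenes of ribosomal protein genes and of EEF1A1, and a probe may also bind transcripts of near-identical copies. Values for such genes are uncertain in that respect.

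The arrays differed in signal shape. The 75th percentile of the processed signal was 88.3 and 69.2 on the Stylo parent arrays and 296 to 536 on the other 6 arrays. The share of signal in the 100 brightest probes was 32.9% and 34.0% on the Stylo parent arrays and 12.9% to 22.9% on the others. Both Stylo groups lay on 1 slide and both Star groups on the other, so a difference between lines cannot be told apart from one between slides. Values are given first as log2 of the signal over each array's 75th percentile and then after quantile normalization, which gives all arrays the same distribution of signals. Of 5 epithelial markers named on the array, 2 to 4 were well above background on both arrays of a group, and their 8 probes summed to between 0.000737% and 0.00138% of an array's signal. Each of 4 mesenchymal markers, VIM, COL1A1, COL1A2 and DCN, had at least 1 probe well above background on both arrays of every group. Their 14 probes summed to 0.216% and 0.219% in Stylo parent, 0.901% and 0.982% in Stylo CSC, 0.477% and 0.499% in Star parent and 0.397% and 0.399% in Star CSC. The mesenchymal markers did not all move alike between the lines. DCN changed by -5.47 ± 0.10 in unsorted and -7.00 ± 0.10 in sorted cells, and COL1A1 by -3.01 ± 0.12 and -6.27 ± 0.12. Both were called lower with quantile normalization too. COL1A2 was called higher in unsorted cells, at 1.096, and at 2.61 with quantile normalization. In sorted cells COL1A2 was lower at -2.33, and not called with quantile normalization (-0.87). VIM was lower at -1.33 in unsorted and -1.95 in sorted cells. With quantile normalization VIM gave 0.98 and -0.33, and neither was called. Of the sort markers, CD44 changed by 0.99 ± 0.14 from unsorted to sorted cells in Stylo and by -0.88 ± 0.14 in Star, and neither reached 2-fold; with quantile normalization the first did (1.04). The ALDH1A1 probe, 1 of several aldehyde dehydrogenase genes, was well above background on both arrays in Star CSC alone. The 3 leukocyte markers summed to at most 0.000787%, and 0 of 3 were well above background on both arrays of either Stylo group, 2 of 3 in Star parent and 3 of 3 in Star CSC. The part of cell make-up in the results below was not tested, and in such bulk samples fewer cells of a type and less RNA per cell cannot be told apart.

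Cytosolic ribosomal proteins took a larger share of the signal in Stylo than in Star, and within Stylo a larger share before sorting than after. Their 52 probes held 7.94% and 8.17% of the summed signal on the Stylo parent arrays. The share was 5.19% and 5.03% on the Stylo CSC arrays, 3.09% and 3.13% on the Star parent arrays, and 2.75% and 2.64% on the Star CSC arrays, so no group overlapped another. The 12 probes of the translation factors and their kinases held between 0.104% and 0.156% on every array and did not show this order. Before any scaling, the median processed signal of the 25 cytosolic ribosomal protein genes was 96727 and 87357 in Stylo parent and 100847 and 90204 in Stylo CSC. It was 46247 and 41568 in Star parent and 47597 and 40976 in Star CSC. These array medians thus overlapped between parent and sorted arrays of 1 line and did not overlap between the lines. With 2 arrays against 2, an exact permutation test of any such value has 6 arrangements and cannot go below a two-sided p of 0.333.

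**Figure D1:**
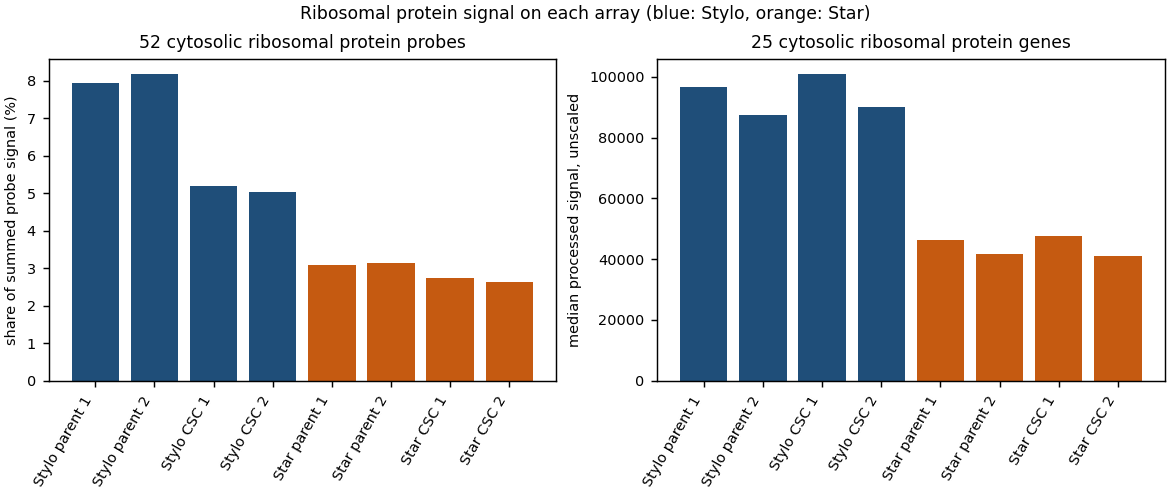
The left panel plots, for each of the 8 arrays, the percentage of the summed probe signal held by the 52 probes of cytosolic ribosomal proteins; the right panel plots the median unscaled processed signal of the 25 genes, both as bars from 0, 1 bar an array. The share is highest on the Stylo parent arrays (7.94% and 8.17%), while the unscaled median is about as high on the Stylo CSC arrays (100847 and 90204) as on the Stylo parent arrays (96727 and 87357).

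Star parent was compared with Stylo parent to ask how the resistant line differs from the line it came from. Of the 34 genes, 29 were lower in Star parent and EIF2AK2 alone was higher, where a call needs a Benjamini-Hochberg adjusted p under 0.05 in limma over all tested probes and at least a 2-fold change; over all tested probes 31.9% were lower and 24.6% higher. All 25 cytosolic ribosomal protein genes fell, with a median log2 change of -3.00 beside -0.20 for all tested probes. The size depended on the scaling: with quantile normalization the median was -0.60 beside 0.14 for all probes, and 9 genes were lower and 1 higher, beside 25.3% and 31.3% of all probes. Under every one of 7 scalings 8 of the 34 genes were lower, beside 12.3% of all tested probes: RPL21, RPL7, RPL7A and RPL36AL of the large subunit, and RPS10, RPS27A, RPS4X and RPSA of the small subunit. These calls are for the probe with the highest mean level. The second probes of RPL7A and RPS4X were not called with quantile normalization. Besides the 75th percentile and quantile normalization, the scalings were each array's median, a percentile over probes detected everywhere, cyclic loess, the spike-in controls, and a normexp background correction.

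**Figure D2:**
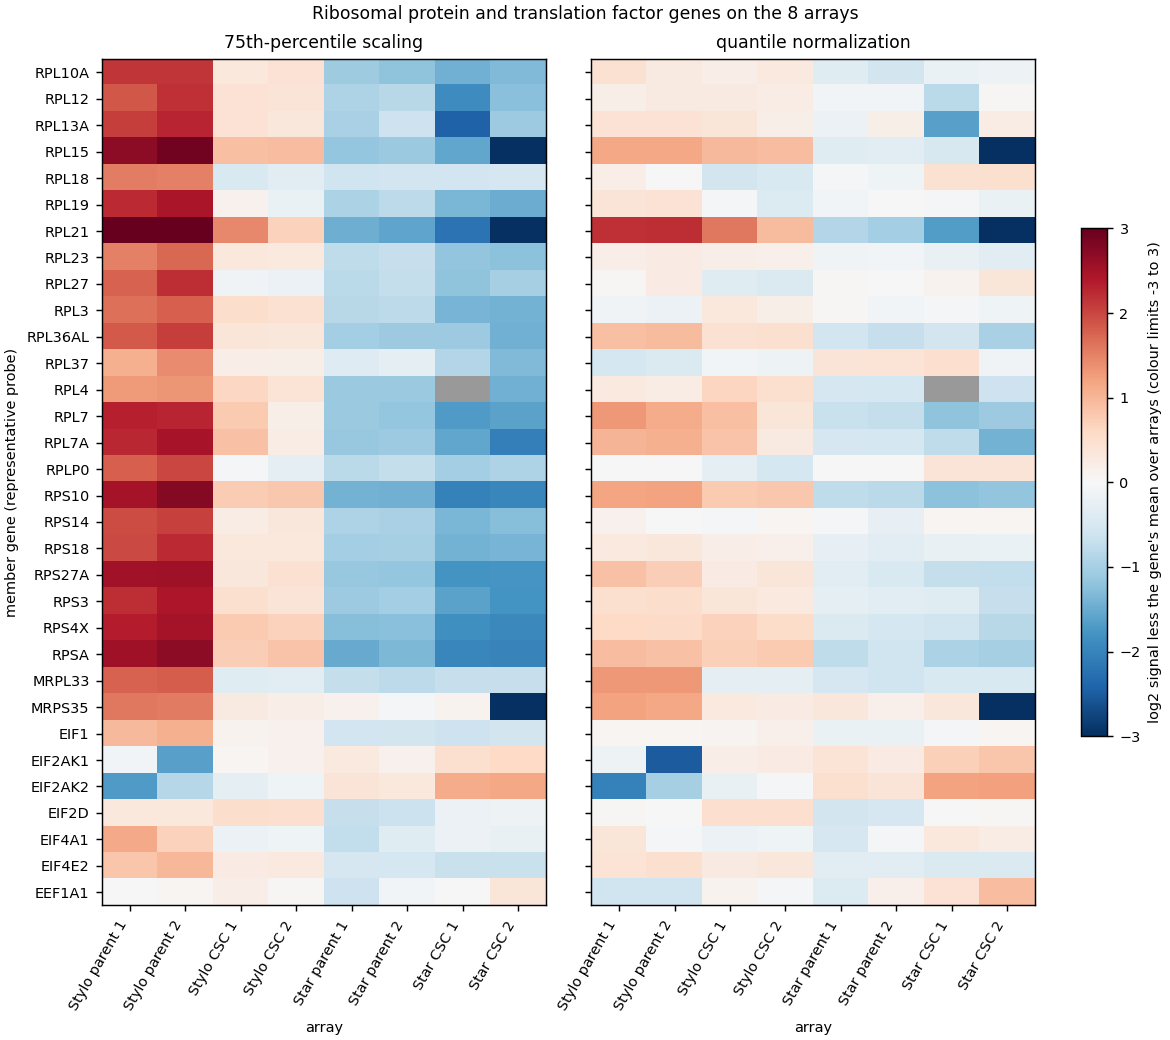
Each row is a gene (32 of the 34) and each column an array; colour gives the log2 signal less that gene's mean over the arrays, from -3 (blue) to 3 (red), with 75th-percentile scaling on the left and quantile normalization on the right, and grey marks a spot left out as an outlier. On the left nearly every ribosomal protein row is reddest on the Stylo parent arrays; on the right the contrast stays in rows such as RPL21 (-3.16 in Star parent against Stylo parent) and RPS10 (-1.98) and is small in rows such as RPL3 (0.13) and RPLP0 (-0.02).

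In the large subunit, RPL21 showed the largest fall. Its level was 9.28 and 9.47 in Stylo parent, 7.39 and 6.63 in Stylo CSC, 4.47 and 4.36 in Star parent and 3.73 and 2.22 in Star CSC. Star arrays lay below all Stylo arrays without overlap. Star parent was below Stylo parent by a log2 change of -4.97 ± 0.50 (adjusted p 0.000203), and by -3.16 ± 0.53 with quantile normalization (adjusted p 0.00221). RPL7, a large-subunit protein that binds RNA, stood at 8.14 and 8.07 in Stylo parent, 6.58 and 5.97 in Stylo CSC, 4.67 and 4.63 in Star parent and 4.09 and 4.19 in Star CSC. It fell by a log2 change of -3.46 ± 0.20 between the parents (-1.91 ± 0.19 with quantile normalization). RPL7A, which lies near the surface of the large subunit, gave -3.48 ± 0.26 and -1.56 ± 0.28 under the 2 scalings. Its second probe was lower at -1.92, and gave -0.41 with quantile normalization, where it was not called. RPL36AL, a close relative of RPL36A, gave -3.00 ± 0.15 and -1.57 ± 0.16, and all 3 of its probes fell under both scalings.

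On the probe with the highest mean level, the other 12 large-subunit genes fell on the 75th-percentile scale and were not called after quantile normalization. Other probes of RPL12, RPL15, RPL19, RPL37 and RPLP0 were lower after quantile normalization, the second RPL19 probe at -1.48. RPL4, which lines the exit tunnel for the nascent chain, stood at 8.06 and 8.12 in Stylo parent, 7.41 and 7.21 in Stylo CSC, 5.67 and 5.68 in Star parent and 5.35 on the single Star CSC array with a usable spot. It fell by -2.41 ± 0.11 between the parents and gave -0.77 ± 0.11 with quantile normalization, under the 2-fold limit. RPLP0, a core protein of the stalk that recruits elongation factors and a common reference gene in PCR, stood at 10.25 and 10.46 in Stylo parent, 8.41 and 8.19 in Stylo CSC, 7.64 and 7.73 in Star parent and 7.44 and 7.54 in Star CSC. Its change of -2.67 ± 0.13 became -0.023 ± 0.11 with quantile normalization (adjusted p 0.863). RPL19 stood at 10.68 and 10.89 in Stylo parent, 8.58 and 8.25 in Stylo CSC, 7.49 and 7.66 in Star parent and 7.07 and 6.96 in Star CSC, and its change of -3.21 ± 0.15 became -0.47 ± 0.15. For RPL3, which reaches toward the peptidyl transferase centre, -2.53 ± 0.10 became 0.13 ± 0.10, and for RPL37 -1.58 ± 0.19 became 0.89 ± 0.20, opposite in sign. The second RPL37 probe kept its sign: it gave -3.01, and -1.19 with quantile normalization, and was lower under both scalings. RPL10A, RPL12, RPL13A, RPL15, RPL18, RPL23 and RPL27 fell by log2 changes between -3.92 and -2.12 and lay between -1.52 and -0.12 after quantile normalization, where none was called.

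In the small subunit, RPS10 and RPSA fell most. RPS10 stood at 9.62 and 9.87 in Stylo parent, 7.88 and 7.94 in Stylo CSC, 5.70 and 5.68 in Star parent and 5.08 and 5.16 in Star CSC. The Star arrays were all below the Stylo arrays, and the change between the parents was -4.05 ± 0.11 (adjusted p 4.58e-06), or -1.98 ± 0.09 with quantile normalization (adjusted p 1.11e-05). RPSA, also known as the laminin receptor for its second role at the cell surface, stood at 10.43 and 10.56 in Stylo parent, 8.61 and 8.74 in Stylo CSC, 6.36 and 6.54 in Star parent and 5.91 and 5.88 in Star CSC. It changed by -4.05 ± 0.11 (adjusted p 4.57e-06), or -1.58 ± 0.10 with quantile normalization. All 4 RPSA probes fell, by -5.27 to -4.05, and by -4.04 to -1.58 with quantile normalization. RPS27A, made as a fusion of ubiquitin with a ribosomal protein, gave -3.68 ± 0.09 and -1.20 ± 0.11, and RPS4X gave -3.69 ± 0.10 and -1.08 ± 0.12. The second RPS4X probe was lower at -2.95, and gave -0.33 with quantile normalization, where it was not called.

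On the probe with the highest mean level, other small-subunit genes changed less once distributions were matched. RPS3, a protein of the mRNA entry channel, gave -3.37 ± 0.12 and -0.80 ± 0.13, and RPS18 gave -3.11 ± 0.11 and -0.60 ± 0.08. The probes of RPS3 differed: with quantile normalization its 4 probes ran from -1.97 to -0.39, and 2 of them were lower. RPS14, whose partial loss underlies a human anaemia, gave -2.95 ± 0.10 and -0.20 ± 0.11.

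The level of a gene and its change were linked over the whole array. Of the 34 genes, 29 lay in the brightest decile of tested probes, where the median change of all 2683 probes was -1.03 between the parents and 50.1% were lower. After quantile normalization the median of that decile was 0.07. The 29 genes had a median of -2.95, and of -0.51 with quantile normalization, so they lay below that decile under both scalings.

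**Figure D3:**
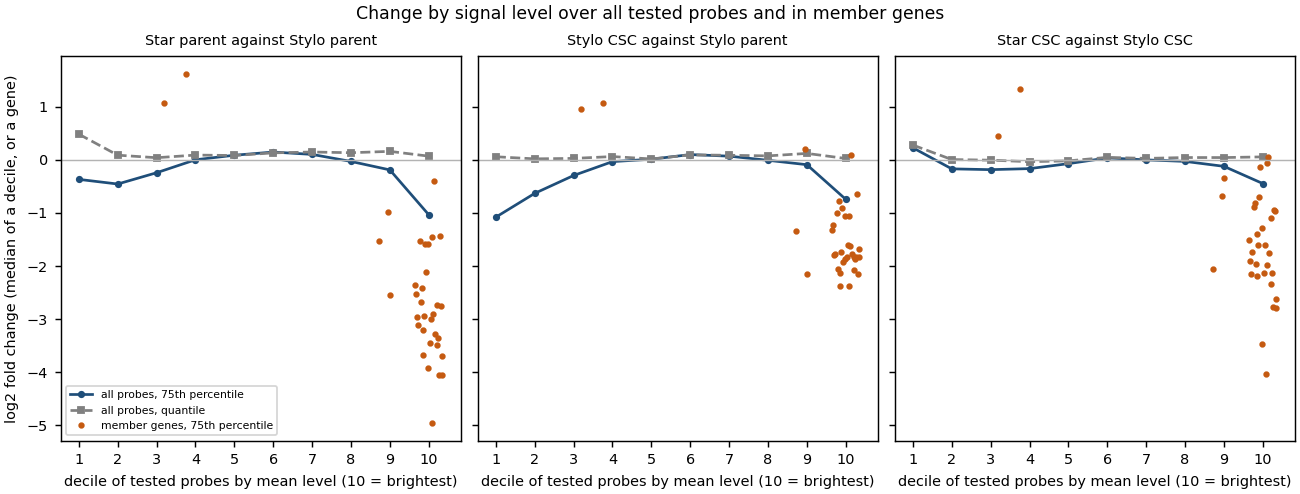
Tested probes are ordered into deciles by their mean level (horizontal axis, 10 the brightest), and lines give the median log2 fold change of each decile under 75th-percentile scaling (blue) and quantile normalization (grey); orange points are the 34 genes under 75th-percentile scaling, 1 panel a comparison. The blue line drops in the brightest decile, to -1.03 between the parents, and most of the genes lie below it.

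The mitochondrial ribosomal genes, whose products translate the few proteins encoded by mitochondrial DNA, are 1 large-subunit and 1 small-subunit gene. MRPL33 stood at 5.04 and 5.09 in Stylo parent, 2.90 and 2.92 in Stylo CSC, 2.56 and 2.47 in Star parent and 2.58 and 2.58 in Star CSC. Stylo parent was apart from the other 3 groups. Star parent was lower by -2.55 ± 0.09 (adjusted p 5.53e-06), and by -1.85 ± 0.09 with quantile normalization, and it was called under 6 of the 7 scalings; with normexp the change was -0.95. MRPS35 stood at 4.56 and 4.52 in Stylo parent, 3.23 and 3.17 in Stylo CSC, 3.09 and 2.93 in Star parent and 3.07 and -0.80 in Star CSC. The change between the parents was -1.53 ± 1.13 and was not called (adjusted p 0.257), since its standard error is shared with Star CSC, whose 2 arrays differed by 3.87. With either Star CSC array left out, the same change passed with an adjusted p of 0.000151.

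Among initiation factors, EIF1, which helps select the start codon, stood at 6.82 and 6.92 in Stylo parent, 5.95 and 5.98 in Stylo CSC, 5.28 and 5.29 in Star parent and 5.23 and 5.30 in Star CSC. It fell by -1.58 ± 0.09 between the parents and gave -0.26 ± 0.09 with quantile normalization. EIF4A1, the helicase that unwinds the 5' end of mRNAs, gave -1.46 ± 0.19 and -0.44 ± 0.19. EIF4E2, a relative of the cap-binding factor, stood at 4.69 and 4.85 in Stylo parent, 4.10 and 4.16 in Stylo CSC, 3.34 and 3.33 in Star parent and 3.19 and 3.20 in Star CSC, and gave -1.43 ± 0.10 and -0.76 ± 0.09. EIF2D, which can deliver tRNA to the ribosome outside the main pathway, stood at 3.54 and 3.55 in Stylo parent, 3.75 and 3.74 in Stylo CSC, 2.55 and 2.59 in Star parent and 3.05 and 3.07 in Star CSC. Its change of -0.97 ± 0.09 (adjusted p 0.000105) fell just short of 2-fold.

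Of the kinases of eIF2, EIF2AK2 was higher in Star parent and EIF2AK1 was not called. EIF2AK2, the double-stranded RNA sensor PKR, which interferon induces, stood at -3.62 and -2.77 in Stylo parent, -2.21 and -2.04 in Stylo CSC, -1.52 and -1.61 in Star parent and -0.81 and -0.76 in Star CSC. Levels were lowest in Stylo parent and highest in Star CSC, with no overlap between groups. Star parent was higher by 1.63 ± 0.27 (adjusted p 0.00187), and by 1.96 ± 0.32 with quantile normalization. Its probe was well above background on 1 of the 2 Stylo parent arrays, where the processed signal was 7.17 and 10.2, and with the normexp correction the change was -0.64, opposite in sign. EIF2AK1, the haem-regulated kinase, stood at -2.95 and -4.50 in Stylo parent, -2.81 and -2.73 in Stylo CSC, -2.58 and -2.73 in Star parent and -2.39 and -2.26 in Star CSC. It was not well above background on either Stylo parent array, and Star parent was at least 1.31-fold higher on the bound set by the dimmest probes above background, which holds for the 75th-percentile scale. Of the 7 scalings 3 called it higher in Star parent, while normexp called it lower (-1.35, adjusted p 9.37e-05). The measured change of 1.07 ± 0.46 was not called (adjusted p 0.0773), and passed without Stylo parent replicate 1 (1.85).

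EEF1A1 delivers aminoacyl-tRNAs to the ribosome during elongation. Its probe with the highest mean level stood at 4.99 and 5.05 in Stylo parent, 5.19 and 5.03 in Stylo CSC, 4.37 and 4.90 in Star parent and 4.98 and 5.35 in Star CSC. That probe did not pass between the parents (-0.39 ± 0.21, adjusted p 0.144). The other 3 probes fell, the largest change being -4.27, and with quantile normalization the 4 probes ran from -3.00 to 0.46 and 2 fell. In Star CSC against Stylo CSC the 4 probes ran from -3.16 to 0.056 and 3 fell. With quantile normalization they ran there from -2.99 to 0.65 and 2 fell. The probes of this gene do not give 1 answer, and EEF1A1 is left as uncertain.

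Star CSC was compared with Stylo CSC to ask whether the sorted cells of the lines differ in the same genes. Of the 34 genes, 21 were lower and EIF2AK2 alone was higher, beside 16.9% and 12.6% of all tested probes. All 21 were cytosolic ribosomal protein genes, 13 of the large and 8 of the small subunit. Their class had a median change of -1.90 (all probes -0.10), and -0.63 with quantile normalization (all probes 0.04). With quantile normalization 10 genes were lower and 1 higher, beside 12.5% and 13.8% of all probes.

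RPL21 again showed the largest change, -4.03 ± 0.50 (adjusted p 0.0012), and -3.75 ± 0.53 with quantile normalization; its second probe gave -0.78 and -0.76 and was not called. RPL15 fell by -3.47 ± 0.59 (adjusted p 0.00387). Its level was 10.20 and 10.40 in Stylo parent, 8.42 and 8.43 in Stylo CSC, 6.35 and 6.41 in Star parent and 5.95 and 3.96 in Star CSC, so the Star CSC arrays differed from each other by 2.00. RPS10 fell by -2.79 ± 0.11 (-2.01 ± 0.09 with quantile normalization) and RPSA by -2.78 ± 0.11 (-1.72 ± 0.10). RPS4X fell by -2.62 ± 0.10 (-1.34 ± 0.12) and RPL4 by -1.96 ± 0.14 (-1.18 ± 0.13). RPL4 had 1 usable Star CSC array, so its spread comes from the other groups and the lone array is assumed to vary like them. Under all 7 scalings 9 genes were lower, beside 5.33% of all tested probes: RPL15, RPL21, RPL4, RPL7, RPL7A, RPS10, RPS27A, RPS4X and RPSA. These calls are for the probe with the highest mean level, and other probes of RPL15, RPL21, RPL4, RPL7A and RPS4X differed. The cytosolic genes not called included RPL18 at -0.13 ± 0.09, RPLP0 at -0.81 ± 0.13 and RPL27 at -0.96 ± 0.17. Other probes of RPLP0 and RPL27 differed. Of the 3 RPLP0 probes 2 were lower, the largest change being -2.91, and 2 with quantile normalization (-2.56). The second RPL27 probe was lower at -1.21, and 0 of the 2 with quantile normalization. EIF2AK2 rose by 1.33 ± 0.27 (adjusted p 0.00748), and did not pass with the normexp correction.

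The comparison of the unsorted lines and that of the sorted cells use different arrays, while both set slide 1 against slide 2. On the 75th-percentile scale 21 genes were lower in both, beside 10.1% of all tested probes, which is 72.4% of the 29 lower in the unsorted and 100% of the 21 lower in the sorted comparison. With quantile normalization 8 genes were lower in both: RPL21, RPL36AL, RPL7, RPL7A, RPS10, RPS27A, RPS4X and RPSA. These are 88.9% of the 9 lower in the unsorted and 80% of the 10 lower in the sorted comparison. Over all tested probes 1855 were lower in both (6.92%), which is 27.3% and 55.3% of the respective lists. Quantile normalization of the 6 arrays other than Stylo parent, chosen after seeing the data, gave 9 lower genes in the sorted comparison. Side by side, the changes after quantile normalization in unsorted and sorted cells were -3.16 and -3.75 for RPL21, -1.98 and -2.01 for RPS10, -1.91 and -1.78 for RPL7, and -1.58 and -1.72 for RPSA. Across the 34 genes the changes had a Pearson correlation of 0.83, beside 0.43 across all tested probes; genes share arrays, slides and scaling, and are not independent replicates.

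**Figure D4:**
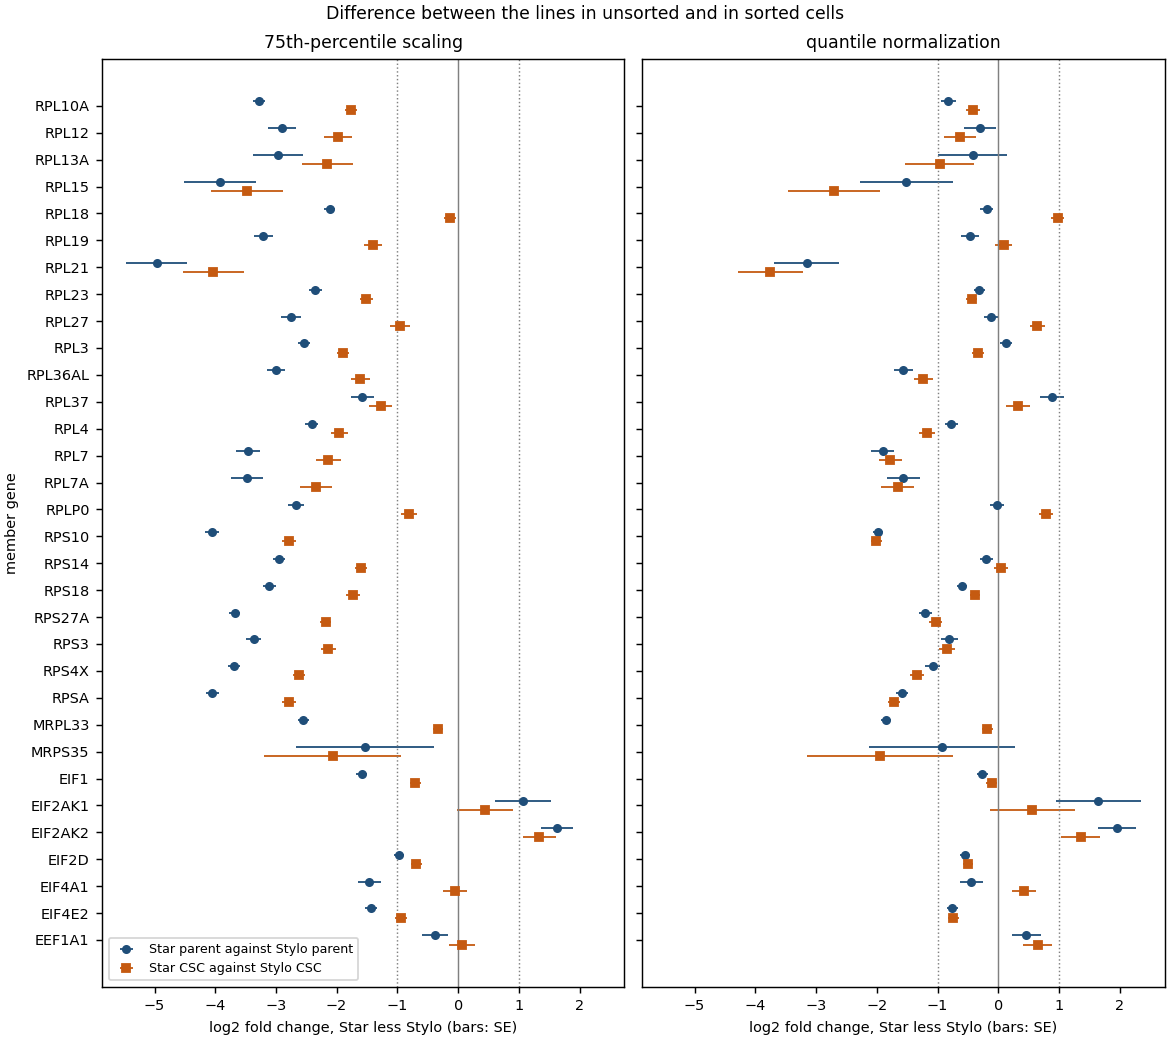
Points are log2 fold changes of Star against Stylo for each of 32 genes, with bars of 1 standard error from limma, in unsorted (blue circles) and sorted cells (orange squares), under 75th-percentile scaling on the left and quantile normalization on the right; dotted lines mark 2-fold. On the right RPL21, RPL7, RPS10 and RPSA stay left of the dotted line in both kinds of cells, and EIF2AK2 stays right of it (1.96 and 1.36).

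Stylo CSC was compared with Stylo parent to ask how the sorted fraction differs from the line. Of the 34 genes, 25 were lower and EIF2AK2 alone was higher, beside 32.1% and 21.9% of all tested probes. The count of lower genes was 1 with quantile normalization (beside 23.6% of probes), 6 with cyclic loess (beside 24.4%) and 1 with normexp (beside 43.5%), where the gene was EIF2AK1 and 0 of the 25 passed, and with spike-in scaling 0 were lower and 10 higher (beside 1.37% and 68.5%). The median change of cytosolic ribosomal proteins was -1.82 on the 75th-percentile scale, -0.18 with quantile normalization and 0.26 with spike-in scaling. The array medians of the unscaled signals of these genes overlapped between the 2 groups.

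RPL21 fell by -2.37 ± 0.50 (adjusted p 0.00585) and RPL19 by -2.37 ± 0.15 (adjusted p 3.96e-05) on the 75th-percentile scale. With quantile normalization they gave -0.94 ± 0.53 and -0.64 ± 0.15, and neither passed. Their second probes were lower with quantile normalization, at -1.65 for RPL21 and -1.07 for RPL19. RPL15 fell by -1.87 ± 0.59 (adjusted p 0.0278), a call that was lost when any 1 of the 6 arrays other than Star CSC was left out, with adjusted p between 0.0513 and 0.104. RPL4 gave -0.78 ± 0.11, under the 2-fold limit. By the probe with the highest mean level, MRPL33 was the gene that also passed with quantile normalization. It changed by -2.15 ± 0.09 (adjusted p 1.31e-05) and by -1.58 ± 0.09 (adjusted p 3.08e-05). It was called under 5 of the 7 scalings, and gave -0.68 with normexp and -0.071 with spike-in scaling, not called. MRPS35 gave -1.34 ± 1.13 and was not called, and passed without either Star CSC array.

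Among factors and kinases, EIF4A1 was called lower and EIF2AK2 higher in this comparison. EIF4A1 fell by -1.06 ± 0.19 (adjusted p 0.00297), and gave -0.32 ± 0.19 with quantile normalization. It was called lower under 1 of the 7 scalings, and higher with spike-in scaling (1.02). Without Stylo parent replicate 1 its change was -0.83. EIF1 gave -0.90 ± 0.09, EIF4E2 -0.64 ± 0.10, EIF2D 0.20 ± 0.09 and EEF1A1 0.088 ± 0.21, and none was called. Of the 4 EEF1A1 probes, however, 2 were lower, the largest change being -1.43, and 0 with quantile normalization. EIF2AK2 rose by 1.07 ± 0.27 (adjusted p 0.0117), but the change was 0.64 without Stylo parent replicate 1 and -0.997 with normexp. EIF2AK1 was at least 1.20-fold higher in Stylo CSC on the bound, and its measured change of 0.95 ± 0.46 was not called. It was called higher under 2 of the 7 scalings and lower with normexp (-1.41, adjusted p 6.92e-05).

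Star CSC was compared with Star parent in the same way. None of the 34 genes was called in either direction by limma, beside 6.51% lower and 3.22% higher of all tested probes; 0 passed with quantile normalization too, where 4.42% and 3.87% of probes passed. At an unadjusted p under 0.05 with the 2-fold limit, RPL21 was lower (1 gene) and 0 were higher, beside 7.62% and 3.56% of probes. The cytosolic ribosomal proteins had a median change of -0.55 (all probes -0.10), and of -0.19 with quantile normalization. The 2-fold limit decided the count: without it 12 were lower and EIF2D was higher at the same adjusted p, beside 17% and 12.5% of all probes.

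Those 12 included RPL3, RPL19, RPL23, RPL37, RPS3, RPS4X, RPS10, RPS14, RPS18, RPS27A and RPSA, with changes from -0.76 to -0.38. RPS27A gave -0.63 ± 0.09 (adjusted p 0.00662) and RPL3 -0.60 ± 0.10 (adjusted p 0.00892). EIF2D gave 0.49 ± 0.09 (adjusted p 0.0106), and 0.55 ± 0.08 with quantile normalization. The widest changes came with wide spread between the Star CSC arrays. RPL13A read 5.59 on Star CSC replicate 1 and 6.93 on replicate 2, RPL15 5.95 and 3.96, RPL21 3.73 and 2.22, and MRPS35 3.07 and -0.80. For the 34 genes the median gap between the Star CSC arrays was 0.10, and it was 0.08 in Star parent, 0.09 in Stylo CSC and 0.20 in Stylo parent. Without Star CSC replicate 1, MRPS35 (-3.81), RPL15 (-2.42) and RPL21 (-2.20) passed as lower; without replicate 2, RPL12 (-1.02) and RPL13A (-1.64) did. Each of these fits has 1 Star CSC array, so the spread comes from the other groups, whereas the Star CSC arrays of these genes differed by 0.65 to 3.87. With spike-in scaling 27 genes were higher (beside 82.7% of probes), in a comparison whose median over all tested probes was then 1.57.

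The effect of sorting was then compared between the lines, as sorted less unsorted in Star minus the same in Stylo. Of the 34 genes, 18 had a larger value in Star than in Stylo and 0 a smaller one, beside 28.2% and 24% of all tested probes. With quantile normalization the counts were 2 and 0, beside 23.5% and 26.9%. The 2 were MRPL33, at 2.21 ± 0.13 (1.67 ± 0.12 with quantile normalization, adjusted p 0.000147), and RPL18, at 1.98 ± 0.13 (1.17 ± 0.15, adjusted p 0.00116). With normexp 0 of the 18 passed: MRPL33 gave 0.73 (adjusted p 0.0955) and RPL18 0.55 (adjusted p 0.195). RPL18 also missed with spike-in scaling (adjusted p 0.0553). For RPL18 the sorting effect was -1.93 ± 0.09 in Stylo and 0.058 ± 0.09 in Star. For MRPL33 it was -2.15 ± 0.09 in Stylo and 0.064 ± 0.09 in Star. The median of the cytosolic ribosomal proteins was 1.26, and -0.05 with quantile normalization.

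Probes of the same gene did not always move alike. Between the parents, the 3 RPLP0 probes fell by -4.59 to -2.67, and with quantile normalization they ran from -2.90 to -0.02. The 2 RPL12 probes gave -4.59 and -2.91, and -2.53 and -0.30 with quantile normalization. The 6 RPL15 probes all fell, by -3.92 to -2.01, and 4 of them fell with quantile normalization. Of the 3 EIF1 probes 1 fell, with changes from -1.58 to -0.35. In the sorted cells, the second RPL7A probe gave -0.74 (0.018 with quantile normalization) and was not called, the second RPS4X probe gave -1.03 (0.55), and the 6 RPL15 probes ran from -3.47 to -0.71 (-2.71 to 0.0082), 5 of them lower and 2 with quantile normalization. The second RPL4 probe gave -1.38 there, and -0.48 with quantile normalization, where it was not called. The second RPL37 probe was lower at -2.33, and at -1.54 with quantile normalization. The 3 RPL36AL probes ran from -1.88 to -0.31 (-1.61 to 0.13 with quantile normalization), 2 of them lower under both scalings. Counted by probe rather than by gene, 59 of the 66 were lower between the parents and 28 with quantile normalization; in the sorted cells 44 and 22 were lower. Which transcript each probe reads was not examined.

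**Figure D5:**
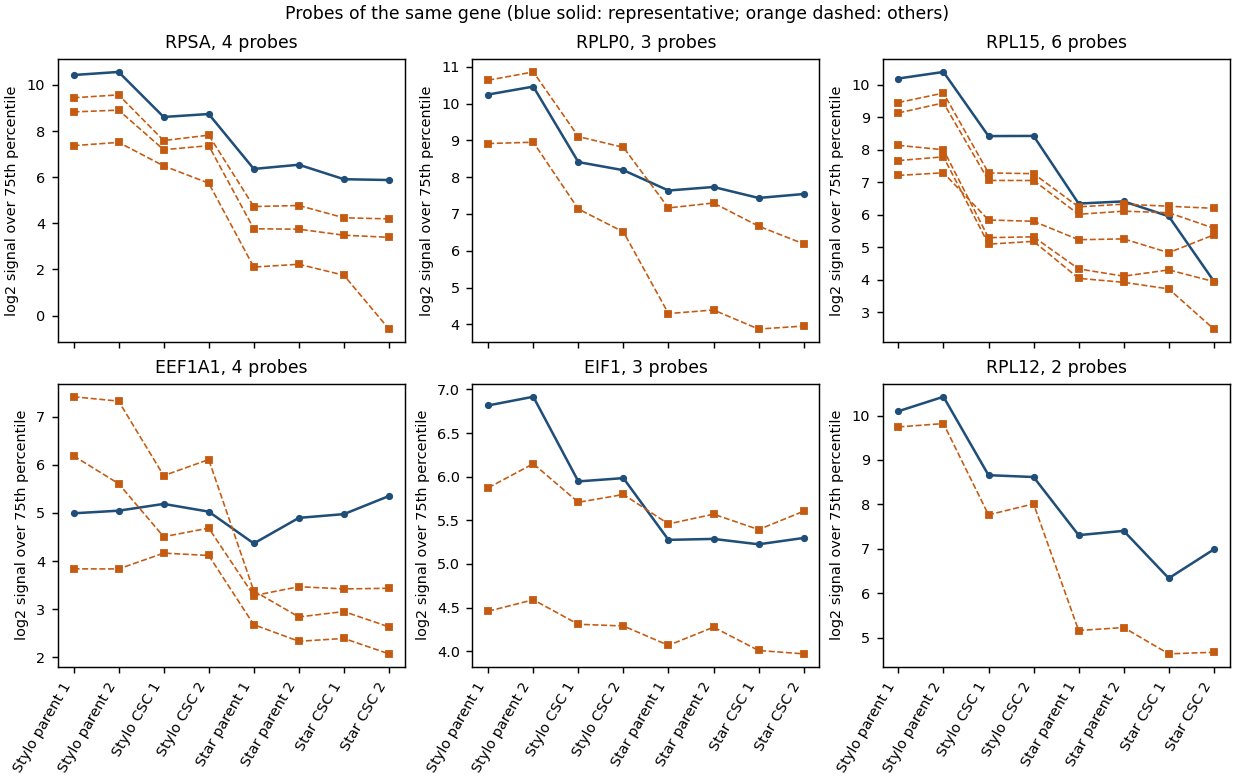
Each panel plots the log2 signal over the 75th percentile on the 8 arrays for every probe of 1 gene; the blue solid line is the probe with the highest mean level and orange dashed lines are the others. All 4 RPSA probes step down from Stylo to Star, while the blue EEF1A1 probe stays between 4.37 and 5.35 and the other EEF1A1 probes are lower in Star parent than in Stylo parent; heights of different probes are not comparable.

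Few other genes of the pathway were named on the array. Of 28 ribosome biogenesis genes only NPM1, a nucleolar chaperone, was tested. It fell between the parents by -3.29 ± 0.09, and by -1.21 ± 0.10 with quantile normalization. Of 21 ribosome-associated genes 3 were tested and all 3 fell between the parents on the 75th-percentile scale, beside 31.9% of all tested probes. With quantile normalization only NACA and ETF1 were lower, beside 25.3%. NACA, part of the complex that meets the nascent chain, fell by -3.04 ± 0.16 (-1.41 ± 0.14 with quantile normalization). ETF1, the release factor that reads stop codons, fell by -2.36 ± 0.23 (-2.37 ± 0.22). In sorted cells NPM1 and ETF1 were not called between the lines: NPM1 gave -0.70 ± 0.09 and ETF1 -0.68 ± 0.23. With quantile normalization NPM1 gave 0.36 ± 0.10, opposite in sign, and ETF1 -0.54 ± 0.22, and neither was called. NACA had 1 usable Star CSC array and is not compared in sorted cells. Of 21 translation control genes MYC alone was tested, and its change between the parents was -0.34 ± 0.15, not called. None of 20 aminoacyl-tRNA synthetases was named. Of 8 housekeeping genes 3 fell and 2 rose between the parents, with a median of -0.64: FTL, ACTG1 and HPRT1 fell, and GAPDH and GUSB rose. With quantile normalization the median was 1.57, opposite in sign, and 5 were higher (ACTB, GAPDH, FTH1, TPI1 and GUSB) and 2 lower (FTL and HPRT1), beside the 31.3% higher and 25.3% lower of all tested probes.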

How the data were processed

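The 8 one-colour arrays were analysed. Quantification used Agilent software (Feature Extraction version 11.5.1.1, per the submitters' processing notes); the authors deposited a processed signal per spot as an intensity, with flags. The deposited series matrix holds log2 values, used only as an alternative; its scale follows the log2 processed signal over each array's 75th percentile, centred per probe. Probes were named by matching their transcript accession to a RefSeq table of assembly UU_Cfam_GSD_1.0, used for names only.

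Control and outlier spots were left out (no spot was saturated), spots of a probe were averaged, and each array's 75th percentile of log2 signal was subtracted. Tested probes exceeded background clearly (the scanner flag) on both arrays in 1 or more groups. Group means were fitted on all 8 arrays with limma 3.58.1 in R 4.3.3, on 26821 probes. A gene is represented by its probe with the highest mean level. Genes with values on every array are those with the 3 largest called changes in each direction and comparison, those not called or opposite in direction between the parents or in Stylo CSC against Stylo parent, and a fixed set (RPLP0, RPSA, RPL4, RPS10, EEF1A1 and EIF2AK2 of those measured), besides RPL7. The members and lists were chosen with earlier results of these data known. Values of 3 genes are not reported here singly, and these genes stay in the counts and medians. The fit was tested on simulated data. Alternatives were quantile, median, detected-probe, cyclic loess and spike-in scaling, normexp with an offset of 50 on the median signal, other filters and thresholds, the replicate block and leaving out arrays; 2 were added after seeing the data.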

Additional observations from a re-analysis of the deposited data

Results flagged for a closer look

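The effect of sorting differed between the lines for 18 genes, of which 17 are given here, by the test of the difference itself in limma with Benjamini-Hochberg adjustment over all tested probes. The value is the log2 change from unsorted to sorted cells in Star less that in Stylo, on the 75th-percentile scale. Among large-subunit genes it was 1.98 for RPL18, 1.86 for RPLP0, 1.81 for RPL19, 1.80 for RPL27, 1.52 for RPL10A, 1.39 for RPL36AL, 1.32 for RPL7 and 1.13 for RPL7A. Among small-subunit genes it was 1.50 for RPS27A, 1.38 for RPS18, 1.35 for RPS14, 1.27 for RPSA, 1.26 for RPS10, 1.23 for RPS3 and 1.07 for RPS4X. It was 2.21 for MRPL33 and 1.41 for EIF4A1. MRPL33 and RPL18 (2 genes) also passed with quantile normalization, at 1.67 and 1.17, and neither passed with normexp (0.73 and 0.55). The call for RPL7A was lost when any 1 of 6 arrays was left out, with adjusted p from 0.0594 to 0.0984, and that for RPS4X without Stylo parent replicate 2 (0.996). The part that the signal shape of the Stylo parent arrays has in the other values was not tested further.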

How the results depend on the processing

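Between the parents 8 genes were lower under all 7 scalings, and 23 of the 34 changes (67.6%) were negative under all 7, beside 32.1% of all tested probes; why the others moved was not tested. The scaling moved the median of all tested probes: between the parents it was -0.20 with the 75th percentile, 0.14 with quantile normalization, 0.72 with spike-in scaling and -0.82 with normexp, and in Stylo CSC against Stylo parent -0.28, 0.06, 1.81 and -0.76. The smallest p that 2 arrays a group allow in a permutation is 0.333, so single values rest on the spread limma shares across probes. Signal over background limits EIF2AK1 and EIF2AK2 in Stylo parent. A fit with slide as a block was not run, because each line was on a slide of its own; fitting only the arrays compared, which is the fit within a slide for both sorting comparisons, gave 30 lower genes between the parents, 26 in Stylo CSC against Stylo parent, 0 in Star CSC against Star parent and 21 in Star CSC against Stylo CSC. The replicate numbers do not pair the arrays: same-numbered arrays had correlations of their deviations from -0.07 to 0.07. With the replicate number as a block the counts were 1 higher and 29 lower between the parents, 1 and 25 in Stylo CSC against Stylo parent, 0 and 0 in Star CSC against Star parent, 1 and 21 in Star CSC against Stylo CSC and 18 and 0 for the difference between the sorting effects, and no call changed.

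Counts of genes moved as follows. Lower genes between the parents numbered 9 with quantile normalization, 18 with cyclic loess and 19 with normexp (EIF2AK1 and 18 of the 29), against 29, and higher genes 2 with median, detected-probe and spike-in scaling and 0 when probes had to be well above background on all 8 arrays, against 1. Lower genes in Stylo CSC against Stylo parent numbered 1 with quantile normalization, 1 with normexp (EIF2AK1, not among the 25), 6 with cyclic loess and 0 with spike-in scaling, against 25; higher genes numbered 2 with median scaling or normexp, 10 with spike-in scaling and 0 with the filter on all 8 arrays, against 1. In Star CSC against Star parent, against 0 and 0, median scaling gave 1 higher, spike-in scaling 27 higher, no fold limit 1 higher and 12 lower, and the unadjusted p 1 lower. Lower genes in Star CSC against Stylo CSC numbered 10 with quantile normalization, 13 with cyclic loess and 9 with quantile normalization of 6 arrays, against 21, and higher genes 0 with normexp or the filter on all 8 arrays, against 1. For the difference between the sorting effects, higher genes numbered 2 with quantile normalization or cyclic loess and 1 with spike-in scaling, against 18, and 2 with normexp, which were EIF2AK1 and EIF2AK2 and not among the 18. Leaving out 1 array at a time gave 1 to 2 higher and 29 to 30 lower between the parents, 0 to 1 and 23 to 26 in Stylo CSC against Stylo parent, 0 higher and 0 to 3 lower in Star CSC against Star parent, 1 and 21 to 22 in Star CSC against Stylo CSC, and 16 to 21 and 0 to 1 for the difference between the sorting effects, where MRPS35 ran from -2.47 without Star CSC replicate 1 to 1.41 without replicate 2. Settings that changed no count beyond 1.5 times were the deposited matrix, no filter, the intensity trend, the arrays compared alone, the mean over probes and the fit without Stylo parent. The following values changed sign from the 75th-percentile value. A gene is listed only where its value was called on the 75th-percentile scale or in the alternative. A median is listed only where its 75th-percentile value was at least 2-fold. Sign changes with neither value called are left out, such as EIF2D between the parents with normexp (0.34). Unless probes were averaged, values are for the probe with the highest mean level.

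With quantile normalization, between the parents, RPL3 was 0.13 and RPL37 0.89. With quantile normalization, in Stylo CSC against Stylo parent, RPL12 was 0.028, RPL3 0.39, RPL37 0.37 and RPS4X 0.028. With quantile normalization, in Star CSC against Stylo CSC, RPL19 was 0.086, RPL37 0.33 and RPS14 0.042. With quantile normalization, in the difference between the sorting effects, the median of the cytosolic ribosomal proteins was -0.046, RPL7A -0.10, RPS10 -0.028, RPS3 -0.046, RPS4X -0.26 and RPSA -0.14. With cyclic loess, between the parents, RPL37 was 0.32. With cyclic loess, in Stylo CSC against Stylo parent, RPL3 was 0.037 and RPL37 0.18. With normexp, between the parents, EEF1A1 was 1.21, EIF1 0.034, EIF2AK1 -1.35, EIF2AK2 -0.64, EIF4A1 0.21, EIF4E2 0.033 and RPL37 0.053. With normexp, in Stylo CSC against Stylo parent, EIF2AK1 was -1.41, EIF2AK2 -0.997, EIF4A1 0.43, RPL23 0.25, RPL3 0.32 and RPL37 0.47. With normexp, in the difference between the sorting effects, the median of the cytosolic ribosomal proteins was -0.23, EIF2AK1 1.28, EIF2AK2 1.54, RPL36AL -0.10, RPL7 -0.23, RPL7A -0.43, RPS10 -0.20, RPS14 -0.11, RPS18 -0.16, RPS3 -0.27, RPS4X -0.31 and RPSA -0.21. With spike-in scaling, in Stylo CSC against Stylo parent, the median of the cytosolic ribosomal proteins was 0.26, EIF1 1.18, EIF4A1 1.02, EIF4E2 1.44, RPL10A 0.31, RPL12 0.46, RPL13A 0.29, RPL15 0.21, RPL18 0.15, RPL23 0.76, RPL3 0.85, RPL36AL 0.48, RPL37 1.03, RPL4 1.30, RPL7 0.25, RPL7A 0.26, RPLP0 0.025, RPS10 0.25, RPS14 0.35, RPS18 0.30, RPS3 0.21, RPS4X 0.40 and RPSA 0.26. With spike-in scaling, in Star CSC against Star parent, EIF1 was 1.65, EIF4E2 1.52, RPL10A 1.42, RPL19 1.11, RPL23 1.19, RPL27 1.32, RPL3 1.07, RPL36AL 1.46, RPL4 1.31, RPL7 1.16, RPLP0 1.47, RPS10 1.099, RPS14 1.29, RPS18 1.27, RPS27A 1.04, RPS3 1.03, RPS4X 1.06 and RPSA 1.11. Averaging a gene's probes, in Star CSC against Stylo CSC, EEF1A1 was -1.54. Quantile normalization of the 6 arrays other than Stylo parent, in Star CSC against Stylo CSC, RPL19 was 0.055, RPL37 0.30 and RPS14 0.043. Leaving out Star CSC replicate 2, in the difference between the sorting effects, MRPS35 was 1.41.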

Other observations

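The nucleolar chaperone NPM1 and the release factor ETF1 had a larger value in Star than in Stylo for the effect of sorting under both the 75th-percentile scale and quantile normalization. Of all tested probes 28.2% had a larger value in Star, and 23.5% with quantile normalization. The sorting effect of NPM1 was -2.59 ± 0.09 in Stylo and 0.0067 ± 0.09 in Star. For ETF1 it was -1.30 ± 0.23 in Stylo and 0.37 ± 0.23 in Star. Neither gene was called in Star under either scaling. The difference was 2.60 ± 0.12 (SE) for NPM1, or 1.56 ± 0.14 with quantile normalization. It was 1.67 ± 0.32 for ETF1, or 1.83 ± 0.32. In limma these had adjusted p-values of 5.04e-05 (NPM1) and 0.00500 (ETF1) on the 75th-percentile scale. These genes were singled out after their values were seen.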
